A study of Arabidopsis thaliana with 6 samples.

Results

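Calmodulin-like genes encode small calcium-binding proteins, and 48 Arabidopsis loci listed under this name were followed here. A locus was measured where the platform annotation gave a probe set, the group of short probes that reads a transcript, to that gene and to no other. Where a gene had several such probe sets the one with the highest mean over the 6 arrays was to be used, but no measured gene had more than 1. This left 34 of the 48 loci, out of 13286 genes measured in this way and 22746 tested probe sets in all. The other 14 loci, among them the touch genes TCH2 and TCH3, CML11, CAM8, CAM9, PBP1 and both loci listed as CEN2, are not analysed here. The annotation used names no probe set for them, alone or with other genes. Whether the array reads them all the same cannot be told from it. The gene table gives a CML symbol to 7 of the 34 and gives the other 27 a locus code in place of a symbol. Apart from AT1G76640, which has a CML name among its synonyms, that the latter are calmodulin-like rests here on the list of loci. All seedlings were of the Col-0 ecotype and 14 days old, grown together in shaken liquid medium under constant light at 23 °C. The treated group received 20 µl of chitooctaose in 10 ml of medium, to a final 1 µM, for 30 min. The control group received the same volume of water for the same time. Each group had 3 arrays from RNA of whole seedlings, described by the submitters as biological replicates. The series text gives 3 min in place of 30 min, and the short description of the treated arrays names water. Titles and protocols were followed.

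Calcium enters the plant cytosol within moments of the perception of chitin fragments, which are sensed at the cell surface as a sign of fungi. Calmodulins and calmodulin-like proteins bind the ion through paired helix-loop-helix motifs called EF hands, change shape, and pass the signal to partner proteins. Whether each listed locus encodes a protein of this form was not checked here. They differ from calcium-dependent protein kinases in having no catalytic domain of their own. Several calmodulin-like genes are also known to be transcribed rapidly after touch, wounding, cold or pathogen signals.

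After chitooctaose, 11 of the 34 measured genes rose and none fell, while 23 missed the threshold (limma, Benjamini-Hochberg adjusted p under 0.05 over all tested probe sets). Across all tested probe sets 4.24% rose and 0.805% fell, and among the 13286 measured genes 3.75% and 0.565%. The loci were chosen with earlier results of these data known. These shares are therefore given for scale, not as a test of the family. At an unadjusted p under 0.05, 16 members were higher and 1 was lower. The share of all tested probe sets at that looser threshold was not counted, so nothing is read from these numbers. Of the 11 that rose, 8 rose at least 2-fold, as did 2.78% of all tested probe sets, and 4 rose at least 8-fold, as did 0.475%. The median log2 change was 0.30 over the 34 genes and -0.04 over all tested probe sets. Of the 11, 5 have a CML symbol in the gene table (CML37, CML38, CML23, CML42 and CML41) and 6 have a locus code in place of a symbol. In whole seedlings, a change in the number of cells of a type and a change in RNA per cell cannot be told apart.

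**Figure D1:**
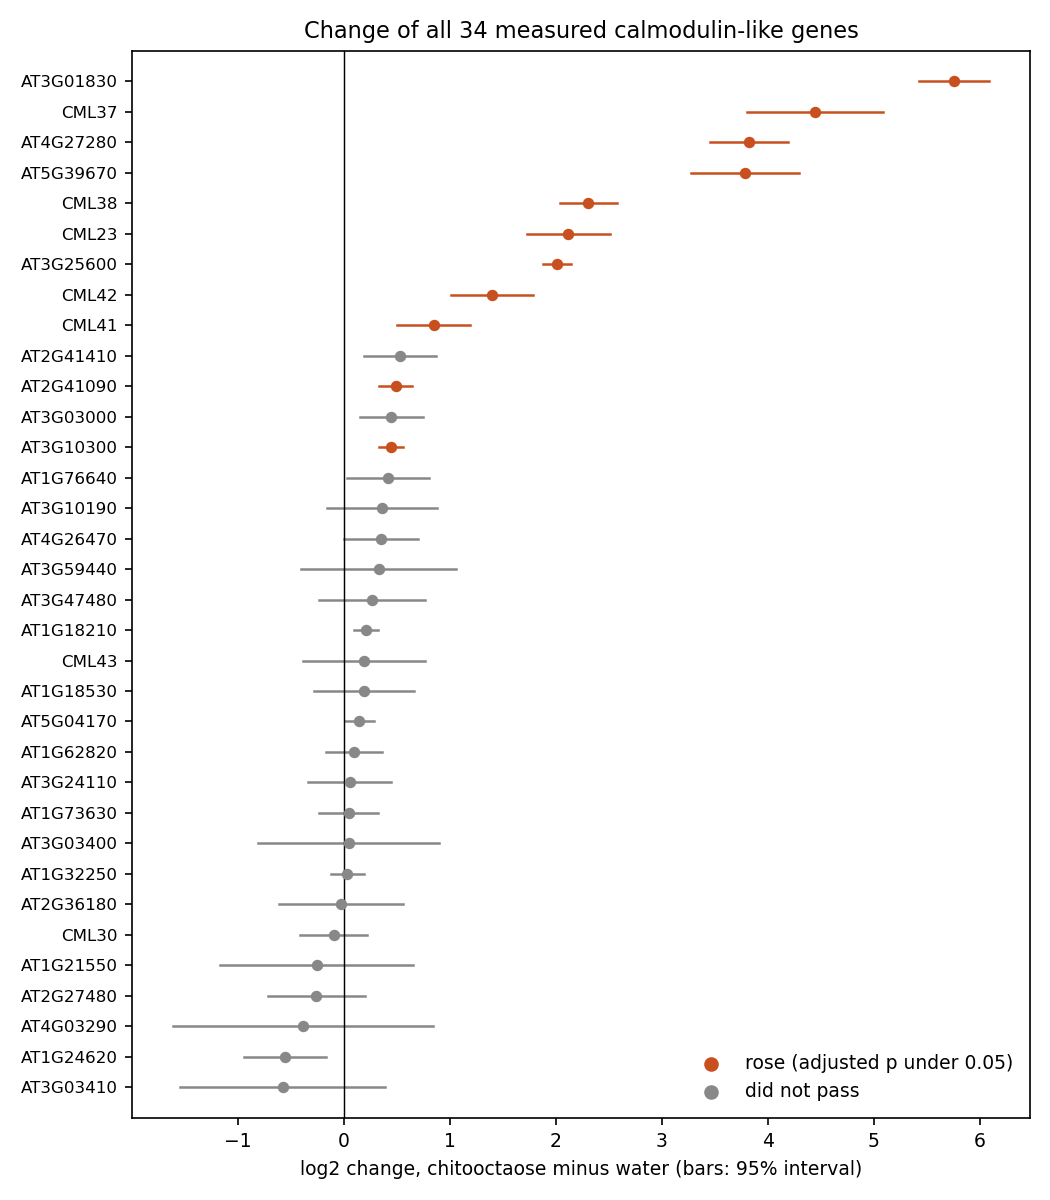
The log2 change (chitooctaose minus water) of each of the 34 measured genes on the horizontal axis, as a point with its 95% interval from the model of 3 against 3 arrays. Genes that rose are in orange, and the changes run from -0.58 for AT3G03410 to 5.76 for AT3G01830.

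The 4 rises of at least 8-fold were those of AT3G01830, CML37, AT4G27280 and AT5G39670. AT4G27280 read 402, 559 and 380.2 in the water arrays and 6311, 6293 and 6124 in the chitooctaose arrays. The treated values lay close together and far above every water value. Its mean went from 447 ± 97.8 to 6243 ± 103 (SD, n = 3), a 14.2-fold rise (log2 change 3.83, SE 0.15, adjusted p = 6.68e-05). AT5G39670 read 91.5, 134 and 80.1 in water and 1389, 1531 and 1209 in chitooctaose, 13.8-fold higher (log2 change 3.79, SE 0.21, adjusted p = 0.000216). The lowest treated array was thus still far above the highest water array. Neither gene was near the floor of 16 to which lower intensities were set before log2 was taken.

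AT3G01830 and CML37 rose from values at background. AT3G01830 read -2.10, 17.0 and 19.9 in water and 950.0, 1049 and 861 in chitooctaose. Its fitted log2 change was 5.76 (SE 0.13, adjusted p = 1.88e-05), the rank 2 rise among all 22746 tested probe sets. With 1 water array below the floor, and the others close to it, the size is not exact, and it was 7.09 with a floor of 1 and 3.89 with a floor of 64. CML37, a calcium sensor known from responses to wounding and insect feeding, read 23.4, 29.5 and 9.88 in water. In the treated arrays it read 560.3, 405 and 506. The fitted log2 change was 4.45 (SE 0.26, adjusted p = 0.000290), at rank 28. With a floor of 64 it was 2.93, or 7.60-fold, so the count of rises of at least 8-fold includes CML37 only at the lower floors. In both genes the treated arrays were far above the floor and the water arrays at or near it.

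Another 4 genes rose between 2-fold and 8-fold. CML38, whose protein is known to gather in RNA granules under low oxygen, read 348, 356 and 281 in water and 1619, 1504 and 1736 in chitooctaose. This was a 4.95-fold rise (log2 change 2.31, SE 0.11, adjusted p = 0.000123). CML23, a relative of TCH2 known from the control of flowering time, read 138, 113 and 161 in water. After chitooctaose it read 644, 516 and 616, 4.34-fold higher (log2 change 2.12, SE 0.16, adjusted p = 0.000806). For both genes the water arrays differed among themselves by far less than the groups did.

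AT3G25600 read 496, 531 and 497 in water and 1964, 2145 and 2026 in chitooctaose, 4.02-fold higher. Its SE of 0.05 on a log2 change of 2.01 was the smallest SE among the 8 genes that rose at least 2-fold (adjusted p = 2.26e-05). The arrays of each group were closely grouped and the groups did not overlap. CML42, known from trichome branching and from defence against insects, read 544, 514 and 650.1 in water and 1614, 1704 and 1213 in chitooctaose. It rose 2.64-fold (log2 change 1.40, SE 0.16, adjusted p = 0.00493). Chitooctaose replicate 3 was the lowest of its treated arrays, and without it the log2 change was 1.55. Chitooctaose replicate 3 was the lowest treated array for 5 of the 11 risers, replicate 2 for 4 and replicate 1 for 2.

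**Figure D2:**
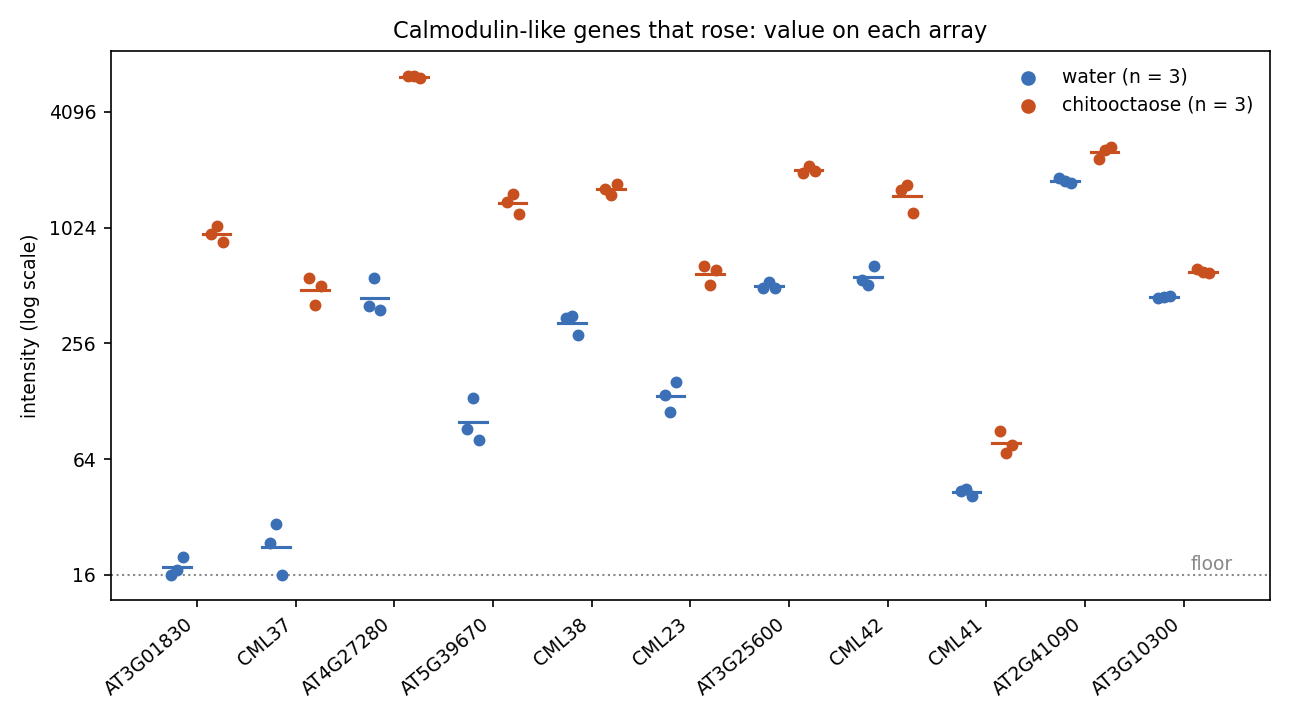
Intensity on a log scale on each of the 3 water arrays (blue) and 3 chitooctaose arrays (orange) for the 11 genes that rose, with values below 16 drawn at the floor and lines at the mean of the log2 values. All treated points lie above all water points of the same gene, and heights are not to be compared between genes, since probe sets differ in their response.

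The remaining 3 rises were under 2-fold. AT2G41090 read 1852, 1794 and 1753 in water and 2330.0, 2578 and 2683 in chitooctaose, 1.40-fold higher (log2 change 0.49, SE 0.06, adjusted p = 0.00891). Without water replicate 3 its adjusted p was 0.0507. It lies next to TCH3, which is not analysed here. AT3G10300 read 439, 444 and 451 in water and 625, 598 and 592 in chitooctaose, 1.36-fold higher (log2 change 0.45, SE 0.05, adjusted p = 0.00335). The water arrays of AT3G10300 spanned a narrow range, with an SD of 6.12 on a mean of 444. The shift also passed the test with each array left out.

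CML41, known as a protein of plasmodesmata that is linked to callose deposition there, read 43.7, 44.9 and 41.4 in water. In the treated arrays it read 89.8, 69.1 and 76.0, a 1.80-fold rise (log2 change 0.85, SE 0.14, adjusted p = 0.0257). The groups did not overlap, but the call was lost when most single arrays were left out. Its adjusted p was 0.107 without water replicate 1 or 3, and 0.0755 without water replicate 2. Leaving out chitooctaose replicate 1 gave 0.0754, and leaving out replicate 3 of that group gave 0.0928. With a floor of 64, which covers all of its water values, its log2 change was 0.28 (adjusted p = 0.362).

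Among the 23 genes that did not pass, 6 had every treated array above every water array. Over all 34 members it was 17 genes, against 9.1% of all tested probe sets, and the reverse held for 1 member and 10.4% of probe sets. Here too the loci had been chosen with earlier results known. AT2G41410 had the largest difference of the 6. It read 2066, 2709 and 1905 in water and 3352, 3151 and 3011 in chitooctaose, a log2 difference of 0.53 with a 95% interval from 0.19 to 0.87 (adjusted p = 0.131). Water replicate 2 was its highest control array, and without it the difference was 0.68 (adjusted p = 0.00966). AT2G41410 also passed with robust variances (adjusted p = 0.0412) and when the dimmest 40% of all probe sets were dropped (0.0251).

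The other 5 of these genes showed smaller differences. AT3G03000 had means of 101 ± 10.6 in water and 138 ± 8.81 in chitooctaose (SD, n = 3, log2 difference 0.45, adjusted p = 0.146). AT1G18210 read 1885, 1974 and 1880.1 in water and 2291, 2224 and 2122 in chitooctaose. Its log2 difference was 0.21, with an interval from 0.10 to 0.32, and its adjusted p of 0.0752 was the nearest to the threshold among the genes that did not pass. AT4G26470 and AT5G04170 had log2 differences of 0.35 and 0.15, with adjusted p of 0.360 and 0.318. AT1G76640 is described with CML38 below.

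One gene, AT1G24620, had every treated array below every water array. It read 26.0, 31.9 and 23.4 in water and 10.3, 18.5 and 20.5 in chitooctaose, a log2 difference of -0.56 that did not pass (adjusted p = 0.158). All 6 of these values were close to the floor, 1 of them below it.

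The groups overlapped for the remaining 16 genes. Of these, 7 were dim, with a mean under 64 in both groups: AT3G59440, AT1G18530, AT3G03400, AT1G32250, AT2G36180, AT1G21550 and AT4G03290. AT1G32250 was at or below the floor in all 3 water arrays, at 13.3, 10.6 and 9.29, and in 2 of the 3 treated arrays, at 10.3 and 7.61. The third treated array read 17.0. For such probe sets these arrays put little limit on a change. The fitted interval of AT1G32250, from -0.13 to 0.19, is narrow because values set to the floor no longer differ. The interval of AT4G03290, a dim gene with no value at the floor, ran from -1.61 to 0.84 on the log2 scale.

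Several of the other 9 overlapping genes gave intervals narrower than that of AT4G03290. AT1G62820 had means of 824 ± 105 for water and 877 ± 50.4 for chitooctaose (SD, n = 3), with a 95% interval of the log2 difference from -0.17 to 0.36. AT1G73630 stood at 377 ± 53.7 and 386 ± 9.55, with an interval from -0.23 to 0.32. A change of 2-fold lay outside both intervals. CML30, whose protein is known as a mitochondrial one, stood at 140 ± 17.4 and 131 ± 7.65, with an interval from -0.41 to 0.22. AT3G24110, AT3G10190 and AT2G27480 had log2 differences of 0.05, 0.36 and -0.26. In AT3G47480 a single treated array, chitooctaose replicate 2 at 318, stood above the other treated values of 201 and 206. Its water arrays read 176, 199 and 217. In AT3G03410 it was a water array, replicate 1 at 142, that stood above 64.2 and 62.9, with treated values of 44.9, 77.0 and 49.9.

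Fitted changes of different size were seen in genes next to each other on the chromosome or in name, though the exact test used for such a difference cannot give a p below 0.1 with 3 against 3 arrays. CML38 and AT1G76640 are direct neighbours in the order of protein-coding genes. The gene table gives the name CML39 both to AT1G76640 and to CML37, so the locus code is used here. AT1G76640 read 43.0, 53.8 and 49.2 in water and 55.6, 68.6 and 71.0 in chitooctaose. Its log2 difference of 0.42 had a 95% interval from 0.03 to 0.80 and did not pass (adjusted p = 0.313), while that of CML38 had an interval from 2.04 to 2.58. The signal of AT1G76640 was low, and with a floor of 64 its log2 difference was 0.08. Its change is therefore less well measured than that of CML38. The log2 value of CML38 minus that of AT1G76640 was 2.52 to 3.02 in the water arrays and 4.46 to 4.86 in the treated arrays, a shift of 1.89.

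CML42 and CML43 showed a like pattern. CML43, known from the hypersensitive response, read 125, 110 and 182 in water and 146, 188 and 135 in chitooctaose, and its groups overlapped (log2 difference 0.19, 95% interval from -0.38 to 0.76, adjusted p = 0.813). The log2 value of CML42 minus that of CML43 went from 2.06 ± 0.20 in water to 3.27 ± 0.17 in chitooctaose (SD, n = 3), a shift of 1.21. For both pairs every treated array was above every water array, and the exact permutation test, 2-sided, gave p = 0.1 (0.1 adjusted over the 2 pairs), the smallest value that 3 against 3 arrays allow. Both pairs were chosen after their values were seen. AT3G03400 and AT3G03410, with 1 gene between them, had log2 differences of 0.04 and -0.58, and neither passed.

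**Figure D3:**
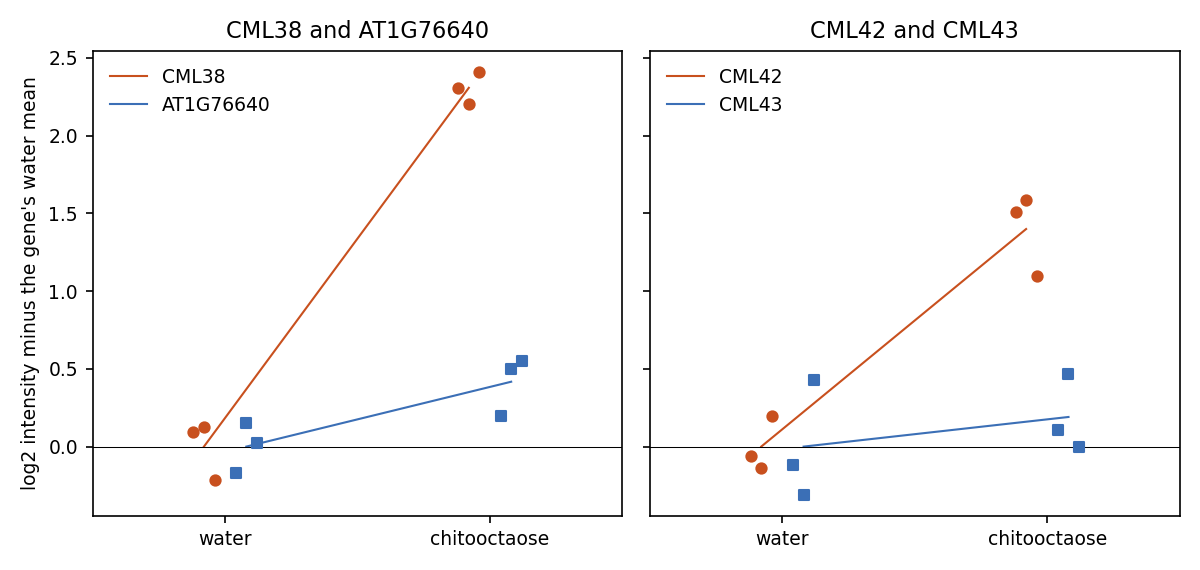
The log2 intensity of each array minus the water mean of the same gene, for CML38 with its chromosomal neighbour AT1G76640 (left) and for CML42 with CML43 (right), with lines joining the group means of 3 arrays. CML38 and CML42 (orange circles) end at 2.31 and 1.40, AT1G76640 and CML43 (blue squares) at 0.42 and 0.19.

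Ordered by change among all 22746 tested probe sets, 4 members stood at ranks 2, 28, 59 and 66 of the rises (AT3G01830, CML37, AT4G27280 and AT5G39670). With a floor of 1 these ranks were 7, 31, 71 and 78, and with a floor of 64 they were 31, 83, 36 and 40, so the order among the 4 depends on the floor. CML38, CML23 and AT3G25600 followed at ranks 226, 258 and 279, and CML42 at 479. CML41 was at rank 804, AT2G41090 at 1442 and AT3G10300 at 1619. The members that did not pass ranged from a log2 difference of 0.53 down to -0.58. Of these 23 genes, 16 had a positive difference and 7 a negative one. The distribution of changes had a long upper side of a few genes and a larger body near 0.

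**Figure D4:**
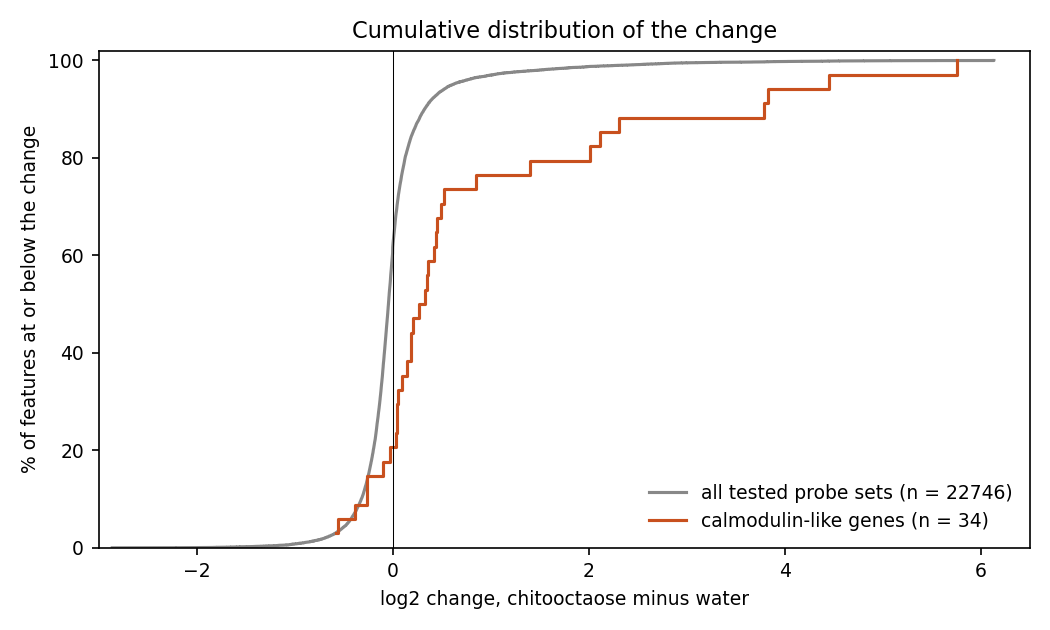
The percentage of features whose log2 change (chitooctaose minus water) is at or below the value on the horizontal axis, for all 22746 tested probe sets (grey) and the 34 measured calmodulin-like genes (orange). The orange line lies to the right of the grey line over most of its length, with medians of 0.30 and -0.04, and its upper end is AT3G01830 at 5.76. The calmodulin-like loci were chosen with earlier results of these data known.

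Other genes of calcium signalling were followed through 8 lists with 146 loci, of which only 12 were measured. For 6 lists (calmodulins, calcium-dependent protein kinases, calcineurin B-like proteins and their kinases, calcium pumps and exchangers, annexins and copines) no locus was measured, so nothing can be said of them here. As for the members, a locus counted as measured only where the annotation gave a probe set to that gene alone. The array may still read loci that the annotation does not name. Of 14 loci listed as calmodulin-binding transcription regulators 8 were measured. Of the 8, 2 rose and 6 missed the threshold, with no fall and a median log2 change of 0.18. Of all tested probe sets 4.24% rose and 0.805% fell. AT4G31000 rose from 110 ± 13.8 to 232 ± 30.0 (SD, n = 3, log2 change 1.07, adjusted p = 0.0119), a call that was lost without chitooctaose replicate 2, with an adjusted p just above the threshold. AT1G67310 rose from 237 ± 22.1 to 368 ± 44.3 (log2 change 0.63, adjusted p = 0.0384). The call of AT1G67310 was lost with any single array left out (adjusted p 0.153, 0.112 and 0.0646 without water replicates 1, 2 and 3, and 0.104, 0.0903 and 0.0880 without chitooctaose replicates 1, 2 and 3). Of 27 loci listed as calcium channels 4 were measured and none passed, with log2 differences from -0.18 to 0.37. Beside the shares over all probe sets, 4 loci are too few to speak for the list. AT4G22120, the channel locus with the highest mean, had means of 326 ± 27.3 for water and 315 ± 60.3 for chitooctaose.

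Array medians lay between 156 and 169 over the 6 arrays, and 163 to 213 values per array were below 0. Pearson's r of log2 intensities across probe sets, which are not independent replicates, ranged from 0.977 to 0.984 between arrays of the same treatment (6 pairs) and from 0.954 to 0.962 between treatments (9 pairs). Few markers of the tissues a whole seedling holds were measured. Of 16 shoot markers 3 were measured (LHCB4.1, LHCB4.2 and LHCB4.3), with a summed intensity of 15077 to 15781 in water and 14260 to 15702 in chitooctaose. Of 11 root markers 3 were measured (PYK10, EXPA7 and EXPA18), with sums of 9780 to 10037 and 9679 to 10578. None of the 6 passed the test, and none was at or below 0 on any array. The largest of their differences was -0.38 for EXPA7, with an interval from -0.96 to 0.20. EXPA18 had a difference of -0.18, with an interval from -0.62 to 0.27. PYK10, with means of 9440 in water and 9644 in chitooctaose, made up most of the root sums. Those sums therefore say little of EXPA7 and EXPA18. LHCB4.1 and PYK10, the brightest of each, had log2 differences of -0.05 and 0.03.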

How the data were processed

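Per the labels' protocols, biotin-labelled cRNA from 7 µg of total RNA was hybridised to Affymetrix arrays. The authors deposited 1 intensity per probe set and array, on a linear scale. How probes were summarised, background-corrected and scaled is not given in the sources used here. Of 22810 probe sets, 64 controls were left out. Intensities below 16 were set to 16, log2 was taken, and 22746 probe sets were fitted with limma 3.58.1 (lmFit and trended eBayes, R 4.3.3), chitooctaose against water, with Benjamini-Hochberg adjustment over all of them. A fold change is the power of base 2 of the log2 change, means ± SD are of intensities, and intervals come from the model. Pairs of genes were compared with scipy 1.17.1.

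Names came from the platform annotation and a RefSeq gene table of TAIR10.1, used for names and gene order only. A probe set of a member was never one marked for shared sequence. Members, lists and tests were chosen with earlier results of these data known. Every member could be named, and from each other list the called genes, up to 3, or the one with the highest mean. The other shoot and root markers are named outside this rule. The code was tested on simulated arrays. Arrays 1, 2 and 3 of one group correlated with those of the other at 0.05, 0.03 and -0.10 after group means were subtracted, so the replicate number was not taken to pair arrays.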

Additional observations from a re-analysis of the deposited data

How the results depend on the processing

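The rises of AT3G01830, CML37, AT4G27280, AT5G39670, CML38, CML23, AT3G25600 and AT3G10300, 8 of 11, kept their call under every alternative run: floors of 1 and 64, quantile normalization, median centring, no variance trend, robust variances, the dimmest 40% of probe sets dropped (which removes CML37), the replicate block, and each array left out. Members that rose numbered 8 with the replicate number as a block, 10 with a floor of 64 and 12 with robust variances. Over all tested probe sets 964 rose in the main fit, and 754, 857 and 1060 under the same settings in that order. With 1 array left out 9 to 11 members rose, as did 721 to 835 of all tested probe sets, and no member fell under any alternative. With the replicate block the adjusted p of CML42 was 0.0577, of CML41 0.111 and of AT2G41090 0.0660. Of the 23 other members, 22 passed under no alternative, the exception being AT2G41410. No called gene changed direction. Of the listed calmodulin-binding transcription regulators 1 rose with a floor of 64 and 0 to 1 with 1 array left out, none of them without chitooctaose replicate 2. Over all tested probe sets 183 fell. The count was higher with quantile normalization (262), median centring (260) and robust variances (225). It was lower with the replicate block (93) and with 1 array left out (86 to 176), where fewer arrays entered the test. No member had a second probe set or a probe set of several genes, so those alternatives could not be run. Low signal, as a mean under 64 in both groups, limits 8 members, none of which passed. Outside these 8, the size of the change also depended on the floor for AT3G01830, CML37, CML41 and AT1G76640.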
